A study of Mus musculus with 9 samples.

Results

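The genes described are 91 nuclear-encoded genes of the mitochondrial respiratory chain and ATP synthase, of 20418 gene symbols measured by RNA sequencing in mouse splenic CD8+ T cells. They were picked out by symbol, and the set was chosen with earlier results of these data known. The rule took every symbol beginning with Ndufa, Ndufb, Ndufc, Ndufs, Ndufv, Uqcr, Cox4, Cox5, Cox6, Cox7, Cox8 or Atp5, together with Sdha, Sdhb, Sdhc, Sdhd, Cyc1 and Cycs. The mice were C57BL/6 females aged 6 weeks, with no genetic modification named in the labels. Besides an untreated condition there were 8 treated ones, formed by crossing the cytokine (IL-2 or IL-15), its dose (1 nM or 500 nM) and the time (4 h or 24 h). Each condition has 1 library, made after the RNA of 3 samples treated alike was pooled and amplified by PCR, so no condition has a second library. IL-2 and IL-15 are T cell growth cytokines whose receptors share the signalling chains Il2rb and Il2rg.

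The respiratory chain moves electrons from NADH and succinate to oxygen through complexes I to IV in the inner mitochondrial membrane, pumping protons that drive the ATP synthase. Complex I (Nduf genes) takes electrons from NADH and complex II (Sdh genes) from succinate. Complex III (Uqcr genes and Cyc1) passes them to cytochrome c (Cycs), and complex IV (Cox genes and Ndufa4) hands them to oxygen. Most subunits are encoded in the nucleus and imported, and the rest in mitochondrial DNA. The latter were not analysed here. T cells that leave rest and begin to divide are known to enlarge their mitochondria and to raise respiration.

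By role, the 91 genes comprise 7 core subunits of complex I, 29 accessory subunits and 4 assembly factors of that complex, 4 subunits of complex II, 8 of complex III, cytochrome c, 11 subunits of complex IV and 15 of the ATP synthase. A further 8 are isoforms known mainly from muscle, testis, lung or hypoxic cells. The remaining 4 carry a family name without being subunits of the enzyme. Cox7a2l is known as a factor that joins complexes III and IV, and whether it does so in these mice was not examined. Cox4nb (now Emc8) belongs to the ER membrane complex, and Atp5s and Atp5sl (now Dmac2) are proteins related to assembly. Of the 91, 87 passed the filter on low counts. The 4 that did not were Cox4i2, Cox7b2, Cox8b and Cox8c, all tissue-restricted isoforms.

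Promoter sequence is shown for cytochrome c and for the 3 genes of subunit c of the ATP synthase, because Cycs and Atp5g1 had the largest rises with dose described further on, while Atp5g2, which encodes the same mature protein as Atp5g1 and Atp5g3, was not called. Sequences are from RefSeq on GRCm38.p6, whereas the deposited tables were aligned to mm8, so no coordinate is carried between the builds. Each run holds the 250 bases before the annotated start, 5′ to 3′ on the gene's own strand, which is the minus strand for all 4 genes. The windows are chr6:50566570-50566819 for Cycs, chr11:96075632-96075881 for Atp5g1, chr15:102671048-102671297 for Atp5g2 and chr2:73911327-73911576 for Atp5g3. Capitals mark matches on either strand to the NRF1 core GCGCATGC, the ETS core CCGGAAG, the YY1 core GCCATNTT or the E-box CACGTG.
Cycs: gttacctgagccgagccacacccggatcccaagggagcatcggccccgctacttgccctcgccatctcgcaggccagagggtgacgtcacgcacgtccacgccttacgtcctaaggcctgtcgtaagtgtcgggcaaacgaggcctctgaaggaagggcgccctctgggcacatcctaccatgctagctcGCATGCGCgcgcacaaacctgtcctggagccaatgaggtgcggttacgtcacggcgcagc
Atp5g1: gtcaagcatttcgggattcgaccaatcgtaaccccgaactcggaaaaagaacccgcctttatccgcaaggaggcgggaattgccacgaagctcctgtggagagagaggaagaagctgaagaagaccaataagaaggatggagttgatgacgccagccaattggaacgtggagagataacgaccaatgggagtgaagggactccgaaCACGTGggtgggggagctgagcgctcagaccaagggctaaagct
Atp5g2: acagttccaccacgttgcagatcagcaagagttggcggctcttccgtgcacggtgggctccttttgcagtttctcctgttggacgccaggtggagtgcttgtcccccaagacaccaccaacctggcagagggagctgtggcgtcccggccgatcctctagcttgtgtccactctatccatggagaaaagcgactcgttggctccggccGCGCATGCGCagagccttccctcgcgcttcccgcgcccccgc
Atp5g3: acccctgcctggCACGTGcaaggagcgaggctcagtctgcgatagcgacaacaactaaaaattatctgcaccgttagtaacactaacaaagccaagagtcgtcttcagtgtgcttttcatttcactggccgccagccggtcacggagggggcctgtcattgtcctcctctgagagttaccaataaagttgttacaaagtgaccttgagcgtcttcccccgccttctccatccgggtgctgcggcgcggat
Cycs holds 1 NRF1 core, which begins 60 bases before the start. Atp5g1 holds an E-box that begins 44 bases before it, and Atp5g3 one that begins 238 bases before it. Atp5g2 holds overlapping NRF1 cores on both strands, beginning 42 and 40 bases before its start.

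Over the wider set, 74 of the 91 genes matched a promoter entry, giving 80 windows that run from 250 bases before to 50 bases after a start. The NRF1 core stood in 15% of them, against 2.71% of all 32851 windows in the RefSeq table. The YY1 core stood in 25% against 6.05%, the ETS core in 21.2% against 8.86%, the E-box in 11.2% against 7.15% and CCAAT in 43.8% against 37.4%. NRF1, ETS factors of the GABP type and YY1 are known regulators of nuclear genes for respiration. The genes that rose with dose at 24 h had 34 windows and the other tested genes 44. The NRF1 core stood in 6 windows of each (17.6% and 13.6%), the E-box in 11.8% and 11.4% and the YY1 core in 26.5% and 25%. The ETS core stood in 14.7% and 27.3%, and CCAAT in 35.3% and 50%. No test was made of these differences. A match describes letters in a window and not a bound site.

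Levels were compared between genes by the deposited RPKM, reads scaled by exon length and by library size. The ATP synthase genes had the highest levels, with a median over genes of 148 RPKM for the mean of the 9 libraries. Atp5b, the catalytic beta subunit, averaged 868 RPKM and Atp5d, the delta subunit of the central stalk, 660.4 RPKM. The single highest gene was Cox7a2l, at 1149 RPKM. The lowest of the complex I core subunits was Ndufs1, the large iron-sulfur subunit, at 27.5 RPKM. Complex II ranged from 24.8 RPKM (Sdhd, a membrane anchor) to 135 RPKM (Sdhc, the other anchor), and complex IV from 20.9 RPKM (Cox7a2) to 499.6 RPKM (Cox8a).

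Within a complex, genes whose products are present in fixed ratios differed widely in RPKM. In complex III, Uqcrfs1, the Rieske iron-sulfur protein, averaged 342 RPKM and Uqcrb 2.05 RPKM, a ratio of 167. In the ATP synthase, Atp5b exceeded Atp5l (6.62 RPKM), the g subunit, by a ratio of 131. Some of the low genes share sequence with other genes: 54% of the 36-base windows of the Uqcrb transcript and 85.3% of those of Atp5l recur in transcripts of other genes, in the GENCODE M21 annotation. How reads with several matches were counted is not given in the sources used here. With tissue-restricted isoforms left aside, the 8 genes with at least 50% of windows shared had a median of 49.2 RPKM and the 40 genes with under 5% shared a median of 61.8 RPKM.

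The 8 tissue-restricted isoforms were low or not detected. Cox6a2, the muscle form of Cox6a1, had the highest mean at 1.09 RPKM, against 311 RPKM for Cox6a1. Cox6b2 averaged 0.22 RPKM beside 40.8 RPKM for Cox6b1, Cox7a1 0.198 RPKM beside 20.9 RPKM for Cox7a2, and Ndufa4l2 0.266 RPKM beside 52.3 RPKM for Ndufa4. Cox4i2 averaged 0.0156 RPKM beside 436 RPKM for Cox4i1. Cox7b2, Cox8b and Cox8c had 0 reads in every library. A count of 0 allows up to 3 reads, which for 1 kb of exon is 0.042 to 0.0721 RPKM depending on the library.

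**Figure D1:**
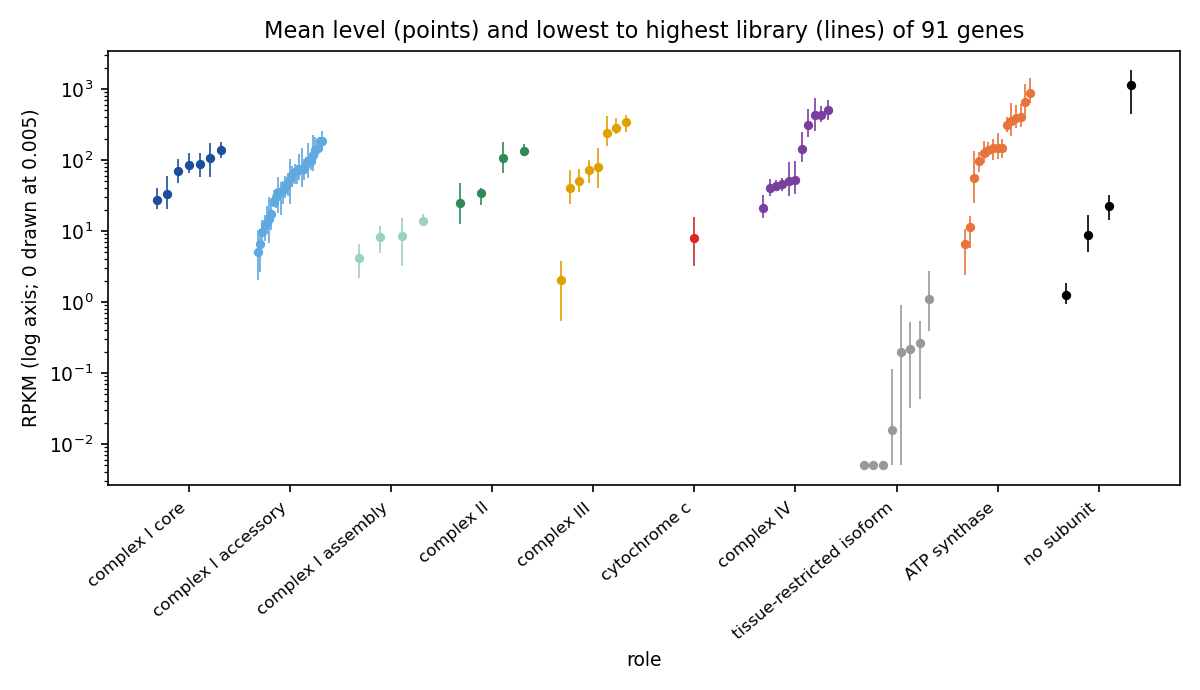
Mean RPKM over the 9 libraries of each of the 91 genes (points, log axis) with lines from the lowest to the highest library, by role. Subunits of the enzymes spread from Uqcrb at 2.05 to Atp5b at 868 RPKM, and the isoforms lie at or below 1.09 RPKM.

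Total counts ran from 27158143 (IL-15, 1 nM, 4 h) to 48799962 (IL-2, 1 nM, 24 h). The 91 genes took 1.72% of the counts in the untreated library, between 1.39% and 1.74% in the 6 libraries at 4 h or at 1 nM, 2.20% with IL-2 at 500 nM for 24 h and 2.11% with IL-15 at 500 nM for 24 h. The labelled cell type was checked by counts scaled to library size (CPM) and summed over marker genes. All 8 markers listed for CD8+ T cells were detected and summed to 2720 to 4413 CPM. Cd3d, Cd3e, Cd3g, Cd2, Lck and Cd5 among them are genes of T cells in general. Cd8a itself ran from 393 to 985 CPM and Cd8b1 from 1011 to 1957 CPM over the 9 libraries. Markers of other spleen cells were also present, all of them detected in at least 1 library: 8 myeloid markers summed to 1071 CPM in the untreated library, 183 to 584 CPM at 1 nM, 96.4 to 136 CPM at 500 nM for 4 h and 20.6 to 23.9 CPM at 500 nM for 24 h. The 7 B cell markers summed to 594 CPM, 429 to 636 CPM, 284 to 330 CPM and 185 to 228 CPM in the same order. Sums of NK cell markers were 186 CPM untreated and 15.3 to 18.3 CPM at 500 nM for 24 h. Most of the untreated sum came from Tyrobp (94.7 CPM) and Fcer1g (88.4 CPM), beside 2.91 CPM for Klrb1c. Ncr1 and Klra8 were at 0 and 0.0646 CPM untreated and did not fall at 500 nM for 24 h. The sum therefore does not by itself show NK cells. Sums of dendritic cell markers were 109 CPM and 7.99 to 10.1 CPM in the same 2 conditions, and of erythroid markers 90.5 CPM and 4.18 to 5.47 CPM. CD4+ and regulatory T cell markers summed to 22.4 to 40.9 CPM over the 9 libraries. In bulk RNA, fewer cells of a type and less RNA per cell cannot be told apart.

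Across the 9 libraries the 87 tested genes were highest at 500 nM after 24 h. Expressed as log2 distance from each gene's own mean over the libraries, their median was 0.49 with IL-2 and 0.48 with IL-15 in those conditions. It was 0.07 with IL-2 at 1 nM for 24 h, −0.28 with IL-15 at 1 nM for 24 h, −0.09 and −0.05 at 500 nM for 4 h, −0.35 and −0.13 at 1 nM for 4 h (IL-2 first in each pair) and −0.16 in the untreated library. IL-2 at 500 nM for 24 h held the highest value of 47 genes and IL-15 at 500 nM for 24 h that of 16. For 49 of the 87 genes (56.3%) both of these libraries lay above all 7 others, compared with 18.6% of all 13479 genes tested. For 1 gene, Cox7a2l, both lay below all others, compared with 15.8% of all genes.

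**Figure D2:**
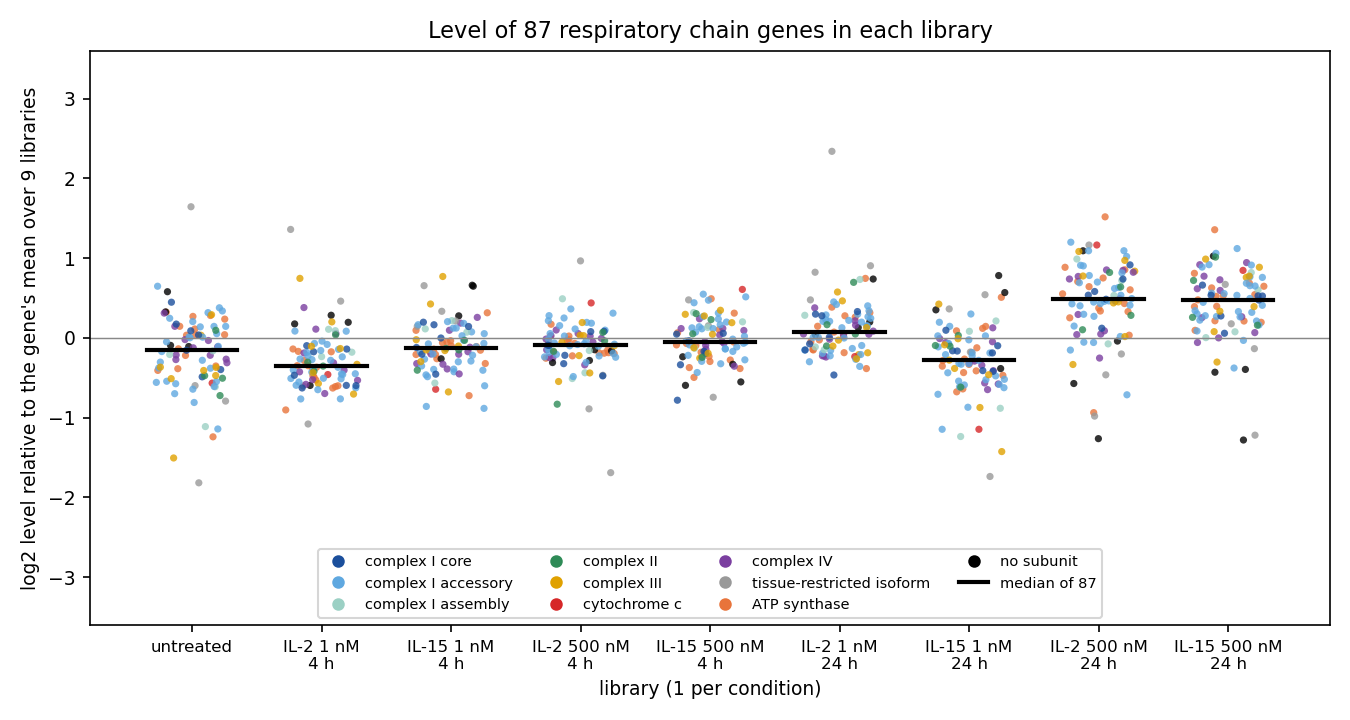
Log2 level of the 87 tested genes in each library relative to the gene's mean over 9 libraries, coloured by role, with the median as a bar. The medians of the 2 libraries at 500 nM and 24 h are 0.49 and 0.48, and the 7 others lie between −0.35 and 0.07.

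The first comparison asked how the 500 nM dose differed from 1 nM after 24 h. At that time 39 of the 87 genes rose and 4 fell (edgeR quasi-likelihood test, adjusted over 13479 genes, dose by time model). Over all genes 15.6% were called higher and 15.6% lower, so the share of these genes that rose (44.8%) lay above the background and the share that fell lay below it. Their median log2 change was 0.55, and that of all genes was −0.04. The 39 rose with both cytokines, and 19 of them by at least 1 on the log2 scale. Because each dose has only 1 library per cytokine at 24 h, the count depends on single libraries. Without IL-15 at 1 nM for 24 h 15 genes rose (17.2%) and 1 fell, where 9.32% of all genes were called higher and 8.92% lower. Without IL-2 at 500 nM for 24 h 17 rose (19.5%) and 1 fell, where 7.89% of all genes were higher and 7.66% lower. Without IL-15 at 500 nM for 24 h 21 rose (24.1%) and 1 fell, where 8.61% were higher and 7.59% lower. Rises and falls together, the share called without IL-15 at 1 nM was 18.4% of these genes and 18.2% of all genes. The myeloid and B cell marker sums given above moved opposite to these genes at this dose and time, and their part in the result was not tested.

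Of the 39 rises 13 held under all 17 alternatives, and of the 4 falls 1 did. The matching share over all genes was not worked out, so these counts have no background to be read against. The rises were Atp5b, Atp5g1, Atp5g3, Cox4nb, Cox5a, Cox5b, Cox7b, Cyc1, Cycs, Ndufa9, Ndufab1, Sdhb and Uqcrq, and the fall was Cox7a2l. They include genes of complexes I to IV, cytochrome c and the ATP synthase, while Cox4nb and Cox7a2l are not subunits.

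Cycs, the mobile carrier between complexes III and IV and an activator of apoptosis once released to the cytosol, rose with dose at both times. It stood at 4.35 RPKM untreated. At 4 h it was 5.15 (IL-2) and 4.07 RPKM (IL-15) at 1 nM, and 9.11 and 10.1 RPKM at 500 nM. At 24 h it was 6.01 and 3.19 RPKM at 1 nM, and 15.7 and 12.9 RPKM at 500 nM. All 4 libraries at 500 nM lay above the other 5. The fitted log2 change was 1.10 ± 0.26 (SE) at 4 h (adjusted p = 0.0195) and 1.66 ± 0.27 at 24 h (adjusted p = 0.000611). Of its 36-base windows, 31.0% recur in transcripts of other genes.

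In the ATP synthase 8 of 15 genes rose at 24 h and none fell. Atp5b was at 919 RPKM untreated, 659 (IL-2) and 719 RPKM (IL-15) at 1 nM for 4 h, 798 and 662 RPKM at 500 nM for 4 h, 656 and 633 RPKM at 1 nM for 24 h, and 1429 and 1337 RPKM at 500 nM for 24 h. The last 2 stood above the untreated library and the other 6 did not. Its log2 change with dose at 24 h was 1.10 ± 0.18 (adjusted p = 0.000672). Atp5a1, the alpha subunit, rose by 0.82 ± 0.18, Atp5d by 0.91 ± 0.22 and Atp5o, a subunit of the peripheral stalk, by 0.93 ± 0.20 on the log2 scale.

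The 3 genes of subunit c, which forms the rotating ring of the enzyme, responded unequally. Atp5g1 went from 33.5 RPKM untreated to 47.5 (IL-2) and 30.1 RPKM (IL-15) at 1 nM for 24 h and to 133 and 121 RPKM at 500 nM for 24 h. At 4 h it was 25.1 and 25.5 RPKM at 1 nM, and 38.9 and 41.9 RPKM at 500 nM. Its log2 change at 24 h was 1.72 ± 0.23 (adjusted p = 0.000204), the largest rise among the called genes.
Atp5g3 was at 320.0 RPKM untreated, 238 and 273 RPKM at 1 nM for 4 h, 321 and 283 RPKM at 500 nM for 4 h, 309.9 and 214 RPKM at 1 nM for 24 h, and 627 and 607 RPKM at 500 nM for 24 h. The 2 libraries at 500 nM and 24 h lay well apart from the others, with a log2 change of 1.24 ± 0.21.
Atp5g2 was at 248 RPKM untreated, between 252 and 275 RPKM in the 4 libraries at 4 h, 383 and 343 RPKM at 1 nM for 24 h, and 406 and 370.4 RPKM at 500 nM for 24 h. Its log2 change with dose at 24 h was 0.09 ± 0.18 (adjusted p = 0.744). As a share of the summed RPKM of the 3 genes, Atp5g1 made up 5.57% untreated, 4.46% to 7.25% in the 6 libraries at 4 h or at 1 nM, and 11.4% and 11.05% at 500 nM for 24 h, where Atp5g2 fell to its lowest shares, 34.8% and 33.7%. The difference between the genes' changes was not itself tested. Shared sequence is heavy in Atp5g1 (67.0% of windows) and Atp5g2 (87.6%) and absent in Atp5g3 (0% of windows), so the values of the first 2 are uncertain.

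**Figure D3:**
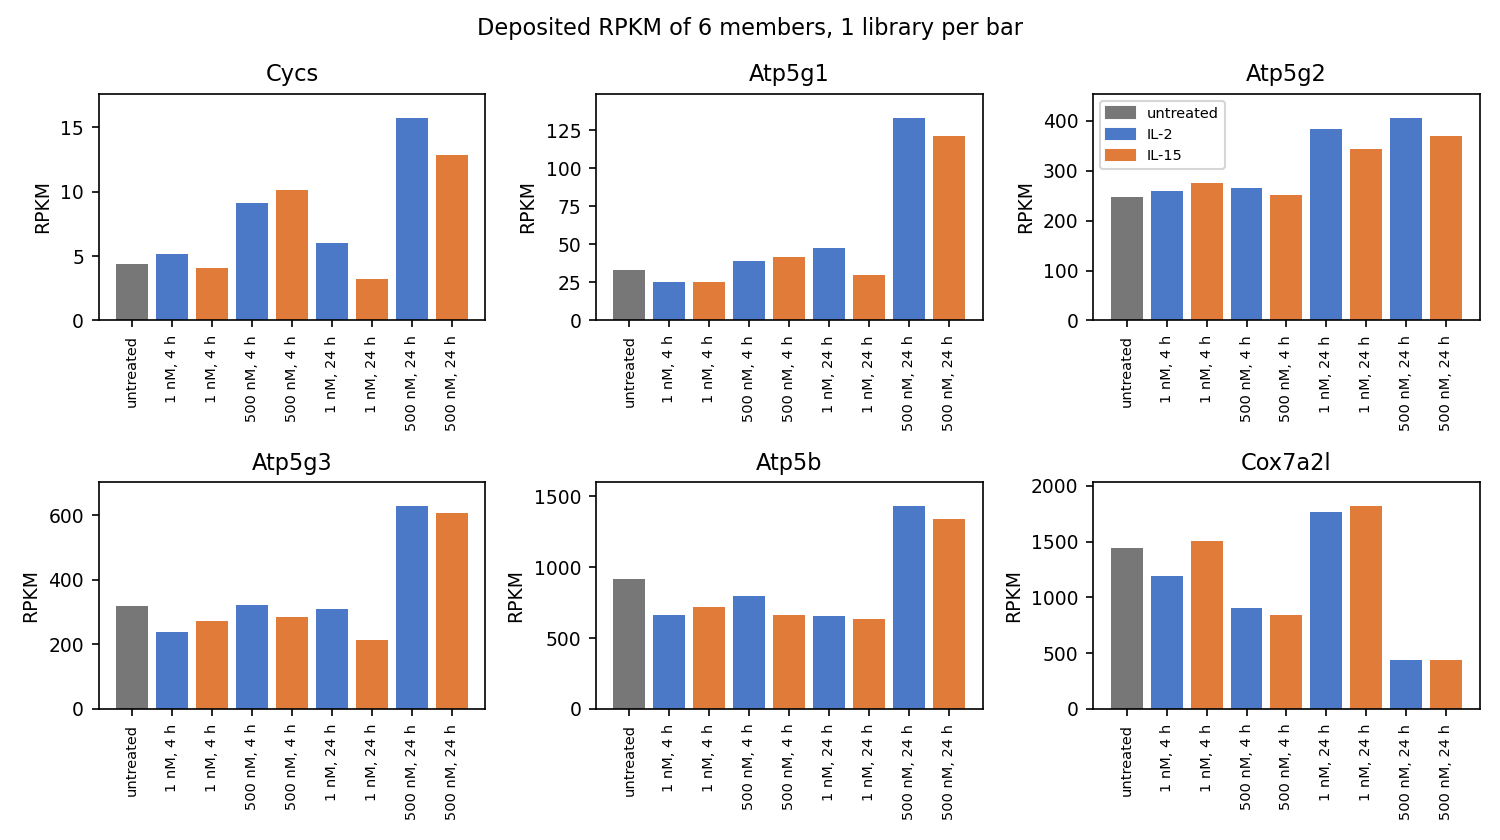
Deposited RPKM of Cycs, the 3 subunit c genes, Atp5b and Cox7a2l, 1 bar per library (grey untreated, blue IL-2, orange IL-15), each axis from 0. Cycs is higher in all 4 libraries at 500 nM, Atp5g1, Atp5g3 and Atp5b are highest at 500 nM and 24 h, and Cox7a2l is lowest there at 436 and 439.9 RPKM.

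In complex I, 4 of 7 core subunits rose with dose at 24 h and none fell. These were Ndufs1 (log2 change 0.85 ± 0.18), Ndufv2 (0.73 ± 0.24), Ndufs8 (0.70 ± 0.24) and Ndufv1 (0.63 ± 0.17). Ndufs1 ranged from 20.2 to 28.6 RPKM in the 7 other libraries and was at 40.03 (IL-2) and 34.1 RPKM (IL-15) at 500 nM for 24 h. Of 29 accessory subunits 14 rose and 1 fell. Ndufab1, the mitochondrial acyl carrier protein, was at 61.9 RPKM untreated, 41.4 to 77.5 RPKM in the 6 libraries at 4 h or 1 nM, and 149 and 131 RPKM at 500 nM for 24 h, a log2 change of 1.36 ± 0.21. Ndufa5 rose by 1.62 ± 0.54 and Ndufa12 by 1.31 ± 0.37 on the log2 scale, both from low levels. Of the 36-base windows of Ndufa12, 57.6% recur in 1 other gene, so its values are uncertain. Ndufa6 fell (−0.62 ± 0.19), being at 253 and 233 RPKM at 1 nM and at 169 and 147 RPKM at 500 nM after 24 h. Among the 4 assembly factors Ndufaf4 rose (1.15 ± 0.26).

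In complex II, Sdhb, the iron-sulfur subunit, rose by 1.03 ± 0.21 on the log2 scale, from 106 (IL-2) and 66.6 RPKM (IL-15) at 1 nM to 179 and 170.4 RPKM at 500 nM after 24 h. Sdha, the flavoprotein, was not called, with a log2 change of 0.03 ± 0.20. In complex III, 4 of 8 rose and 1 fell. Uqcrq rose most (1.30 ± 0.28), from 79.5 and 39.6 RPKM to 141 and 146 RPKM, followed by Cyc1, the heme-bearing cytochrome c1 (1.09 ± 0.20). Uqcrh, the hinge protein, fell (−0.82 ± 0.23), from 74.9 and 67.3 RPKM to 39.5 and 41.2 RPKM. Its untreated level was 35.5 RPKM, so the libraries at 1 nM for 24 h were the high ones. In complex IV, 5 of 11 rose and none fell. Cox7b rose by 1.26 ± 0.21, Cox5a by 1.19 ± 0.22, Cox5b by 1.09 ± 0.20, Ndufa4 by 1.03 ± 0.25 and Cox6a1 by 0.84 ± 0.19. Shared 36-base windows made up 5.38% in Cox7b, 42.6% in Cox5a, 30.5% in Cox5b, 0.87% in Ndufa4 and 20.3% in Cox6a1. Cox4i1, the largest nuclear-encoded subunit, was at −0.24 ± 0.21 and was not called. None of the 4 isoforms tested was called.

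The strongest fall was that of Cox7a2l. It was at 1439 RPKM untreated. At 4 h it was 1196 (IL-2) and 1504 RPKM (IL-15) at 1 nM, and 907 and 841 RPKM at 500 nM. At 24 h it was 1763 and 1815 RPKM at 1 nM, and 436 and 439.9 RPKM at 500 nM. All 4 libraries at 500 nM lay below the other 5, and the log2 change at 24 h was −2.03 ± 0.19 (adjusted p = 2.48e-05). Of its 36-base windows, 20.02% recur in 1 other gene. Atp5sl also fell (−0.76 ± 0.20), from 26.0 and 28.9 RPKM to 15.1 and 17.4 RPKM. Cox4nb rose (1.17 ± 0.22), from 8.81 and 6.16 RPKM to 17.0 and 16.6 RPKM. It lies next to Cox4i1, whose exons overlap its own on the opposite strand, and strand use is not given in the sources used here. With these 3 and Atp5s left out, 38 of 83 genes rose and 2 fell.

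**Figure D4:**
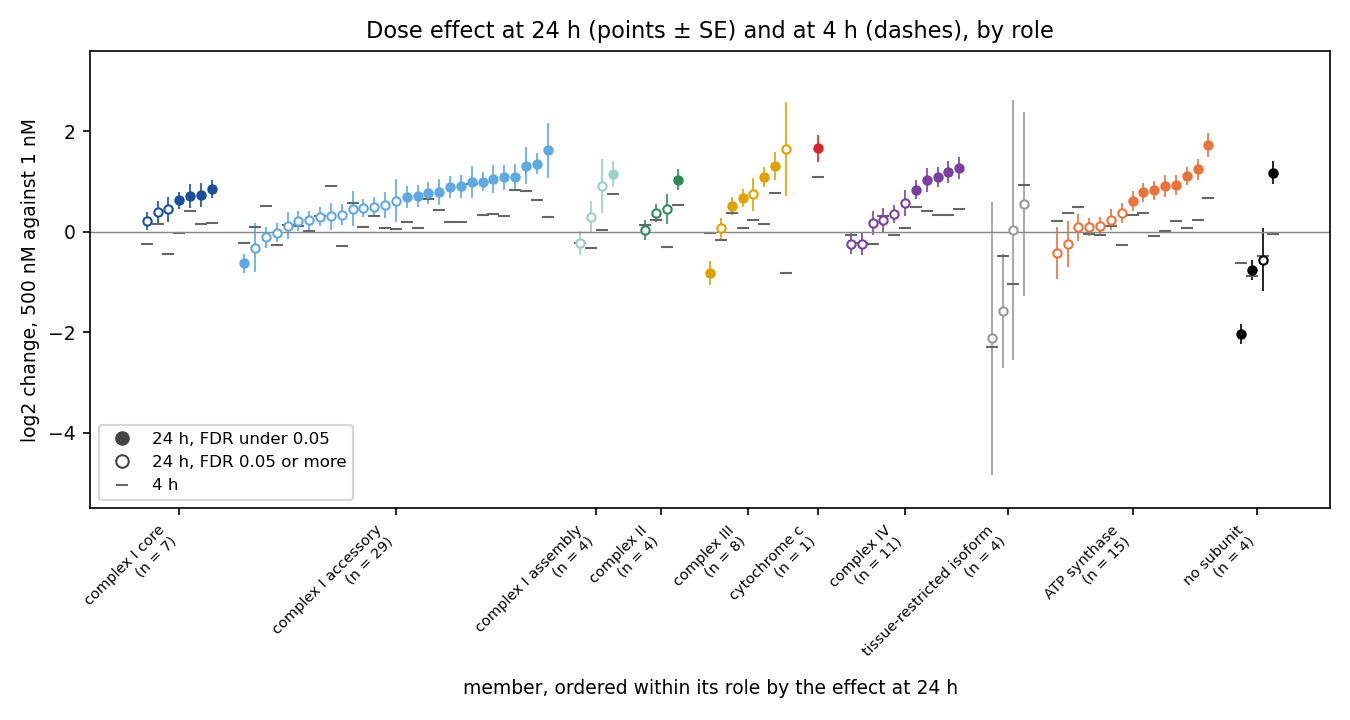
Fitted log2 change from 1 nM to 500 nM for the 87 tested genes by role, at 24 h (points with SE, filled where the adjusted p is under 0.05) and at 4 h (dashes). At 24 h 39 genes are filled above 0 and 4 below it, and Cox7a2l is the lowest filled point at −2.03.

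After 4 h the dose effect was called for 1 rise, Cycs, and 1 fall, Atp5sl (−0.88 ± 0.20, adjusted p = 0.015). Over all genes 5.42% were called higher and 4.63% lower, so neither share of the 87 exceeded the background. The median log2 change of the 87 genes was 0.15. DESeq2 called 7 of the 87 (8.05%, beside 13.5% of all genes), and the count was 7 without IL-2 or IL-15 at 1 nM for 24 h, 5 without IL-2 at 500 nM for 4 h, 1 without IL-15 at 1 nM for 4 h and 0 without IL-15 at 500 nM for 4 h. Without each of these 5 libraries the share of the 87 called, rises and falls together, was below that of all genes, which ran from 4.23% to 11.7%. For rises alone the share was slightly above that of all genes without IL-2 or IL-15 at 1 nM for 24 h. For 68 of the 87 genes the fitted dose effect was larger at 24 h than at 4 h, beside 6398 of all 13479 genes. The test of that difference, the dose by time term, called 4 genes, 3 with a larger effect at 24 h and 1 with a more negative one, where 4.06% and 4.76% of all genes were called. Cox4nb differed by 1.21 ± 0.32 on the log2 scale (adjusted p = 0.0339), Atp5b by 1.02 ± 0.25 (adjusted p = 0.0273), Atp5a1 by 0.90 ± 0.25 (adjusted p = 0.0459) and Cox7a2l by −1.41 ± 0.26 (adjusted p = 0.00789). The count was 10 without IL-2 at 1 nM for 4 h (9 upward, or 10.5%, where 4.31% of all genes were called upward) and 7 without IL-2 at 1 nM for 24 h (6 upward, or 6.98%, where 4.42% were). It was 2 without IL-2 at 500 nM for 4 h, 1 without IL-15 at 1 nM for 4 h, at 1 nM for 24 h or at 500 nM for 4 h, and 0 without either library at 500 nM for 24 h, where 2.75% (without IL-2) and 2.65% (without IL-15) of all genes were called.

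Averaged over both times, 16 of the 87 genes rose with dose and 2 fell, against a background of 7.63% higher and 8.47% lower. All 16 rose in 4 of 4 matched pairs of libraries, and all 16 also rose at 24 h. They were Cycs (1.38 ± 0.23), Atp5g1 (1.20 ± 0.25), Ndufa12 (1.07 ± 0.29), Uqcrq (1.04 ± 0.24), Ndufab1, Ndufb2, Ndufb7, Ndufaf4, Cox7b, Sdhb, Ndufa4, Cox5b, Ndufs5, Ndufa9, Cox6a1 and Atp5f1. Cox7a2l (−1.33 ± 0.29) and Atp5sl (−0.82 ± 0.16) fell. The count of 18 became 31 without IL-15 at 1 nM for 4 h, 7 without IL-2 at 1 nM for 4 h or IL-15 at 1 nM for 24 h, 6 without IL-2 at 1 nM for 24 h, and 4 without either library at 500 nM for 24 h. Without IL-15 at 1 nM for 4 h 29 genes rose (33.3%), where 8.79% of all genes were higher. Without either library at 500 nM for 24 h 3 rose (3.45%), where 3.54% of all genes were higher, so this share lay near the background. Without IL-2 at 1 nM for 4 h or for 24 h 5 rose (5.81%), where 4.15% and 4.46% were higher. Without IL-15 at 1 nM for 24 h 6 rose (6.9%), where 3.57% were higher. The calls of Cycs and Atp5sl held under all 18 alternatives. DESeq2 called 30, of which 28 rose (32.2%), where it called 12.8% of all genes higher.

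Between 4 h and 24 h, averaged over dose, 1 gene rose and none fell, while 2.69% of all genes were higher and 2.62% lower. The gene was Atp5g1 (1.05 ± 0.26, adjusted p = 0.0486), and its call was lost without any of 6 libraries, namely those with IL-2 at either dose and time and those with IL-15 at 500 nM. The median log2 change of the 87 genes was 0.30, with 78 of 87 above 0, beside 6708 of all 13479 genes. The matched libraries differed: the median was 0.40 for IL-2 at 1 nM, 0.56 for IL-2 at 500 nM, 0.47 for IL-15 at 500 nM and −0.12 for IL-15 at 1 nM. Without IL-15 at 1 nM, the 4 h or the 24 h library, 12 genes rose (13.8%, where 5.4% and 5.17% of all genes were higher), and 2 rose without the untreated library. By DESeq2 12 rose and none fell (13.8% called), where 8.01% of all genes were higher and 7.53% lower, 15.5% in all. By limma-voom 5 rose and none fell (5.75%), where 4.8% were higher and 3.92% lower, 8.72% in all. With a dose by time term in the model, 23 genes rose (26.4%) and none fell, where 11.7% of all genes were higher and 10.8% lower. With all 3 interactions 33 rose (37.9%) and 1 fell, where 13.7% were higher and 12.2% lower, so the count for time depends on the model.

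IL-15 and IL-2 were compared as 1 effect averaged over the matched doses and times. Differences of opposite sign between conditions can cancel in it. No gene among the 87 was called, in a comparison where 0% of all 13479 genes were higher and 0% lower. At an unadjusted p under 0.05 there were 0 of the 87 and 125 of all genes (0.927%). That is a smaller share than this threshold alone would give without any difference, so the test was strict. DESeq2 and limma-voom also called 0 of the 87. Fitted log2 changes of IL-15 against IL-2 ran from −0.40 (Ndufa4l2) to 0.60 (Atp5k), with a median of −0.03. The single pair of libraries with the widest gap was that at 1 nM and 24 h. There 12 of 87 genes were higher with IL-15, beside 51.0% of all genes, and the median was −0.34, with no test. At 1 nM and 4 h the median was 0.23, and at 500 nM it was 0.02 (4 h) and −0.07 (24 h). At 1 nM and 24 h the myeloid markers summed to 584 CPM with IL-15 and 475 CPM with IL-2, and their part in the gap was not tested.

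Against the untreated library, each time was compared as an average over both cytokines and both doses. No gene of the 87 was called at 4 h or at 24 h. Neither dose was tested alone against the untreated library. In the single libraries at 1 nM for 24 h the median log2 distance from it was 0.20 with IL-2 and −0.13 with IL-15. Over all genes 0.883% were higher and 1.54% lower at 4 h, and 0.0668% higher and 0.275% lower at 24 h. At an unadjusted p under 0.05 there were 4 of the 87 at 4 h (4.6%) and 16 at 24 h (18.4%), beside 18.4% and 17% of all genes. DESeq2 called 1 of the 87 at 4 h and 2 at 24 h, and 10.1% and 7.91% of all genes. Both comparisons rest on 1 untreated library. The median log2 change was 0.03 at 4 h and 0.37 at 24 h. In the single libraries at 500 nM for 24 h, 74 of 87 genes stood above the untreated level with IL-2 and 74 with IL-15, with medians of 0.58 for each. Of all genes tested, 48.6% and 48.9% did.

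Neighbouring mitochondrial genes were read from lists of related functions, against the same background of 15.6% of all genes higher and 15.6% lower with dose at 24 h. Of 22 genes for import, carriers and chaperones, 18 rose with dose at 24 h (81.8%) and none fell, with a median log2 change of 1.10. The largest were Hspd1, the mitochondrial chaperonin (2.28 ± 0.22), Tomm40, the import pore (2.20 ± 0.24), and Timm8a1 (1.98 ± 0.29). Of 17 genes of pyruvate dehydrogenase and the TCA cycle, 8 rose (47.1%), led by Idh3a (1.22 ± 0.21), and Idh2 fell (−0.67 ± 0.19). Of 16 genes of other electron entry and ubiquinone synthesis, 9 rose (56.2%), among them Pdss1 (2.14 ± 0.39), which makes the ubiquinone tail, and Sqrdl, which oxidises sulfide, fell (−2.73 ± 0.38). Of 24 other assembly factors, 5 rose (20.8%), a share near the background, with Lrpprc at 1.04 ± 0.28, and Surf1 fell (−0.68 ± 0.24). Their median log2 change was nevertheless 0.55, where that of all genes was −0.04.

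Of 18 regulators of mitochondrial gene expression and mtDNA upkeep, 2 rose (11.1%) and 1 fell (5.56%) with dose at 24 h, with a median log2 change of 0.10. Neither share exceeded the background of 15.6% in each direction. Myc (1.36 ± 0.20) and Pprc1, a coactivator related to Ppargc1a (1.23 ± 0.21), rose, and Polg2, a subunit of the mtDNA polymerase, fell (−0.84 ± 0.23). Nrf1 (0.10 ± 0.21), Gabpa (0.30 ± 0.23) and Tfam (−0.07 ± 0.18) were not called. Yy1 stood at −0.80 ± 0.30 (adjusted p = 0.0639).

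Across the 87 genes, Spearman's rho of the dose effect at 24 h was 0.05 with mean RPKM and 0.13 with exon length, as descriptions over genes of the same libraries. Of the 40 genes with under 5% of windows shared 17 rose and 2 fell, of 35 with 5% to 50% shared 20 rose and 2 fell, and of 8 with more shared 2 rose and none fell. Exons of 33 of the 91 genes overlap those of another gene, and in 4 (Atp5o, Ndufa13, Ndufaf2 and Ndufb6) by over 20% of their bases.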

How the data were processed

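RNA of splenic CD8+ T cells was sequenced in 9 libraries, 1 per condition. Per the submitters' processing notes, CASAVA 1.8 and Bowtie 0.12.4 were used with mm8, while strand use and multi-mapping are not stated there. Raw read counts per RefSeq transcript were deposited, with the exon length (another number, per the file headers) and RPKM. Recomputing showed that the authors made the RPKM from the same counts, the length and 1 total per library, and that total exceeds the summed counts. RPKM served for levels and counts for tests.

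For each symbol the transcript with the most reads was used. Genes were filtered by filterByExpr (minimum 10, total 15), which left 13479, and scaled by TMM. edgeR 4.0.16 (R 4.3.3, quasi-likelihood) fitted cytokine, dose, time and an untreated term, with 4 residual degrees of freedom, or with a dose by time term, with 3. With no replicate libraries, the spread comes from this layout. It is what the fitted terms leave over, so interactions that were not fitted count as spread. With 1 library per condition and pooled RNA, the p-values measure neither the spread between libraries of a condition nor that between animals. Changes are log2 ± SE, called at an adjusted p under 0.05 (Benjamini-Hochberg). TMM sizes relative to the authors' totals vary by 0.931 to 1.045, so RPKM ratios and fitted changes differ slightly. The script was tested on simulated data.

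DESeq2 1.42.0, limma-voom 3.58.1, other scalings, filters, models and leaving out each library were tried. Genes named are those called (largest first), the extremes of each role by RPKM, isoforms with counterparts and genes that moved against their role, of which a few are not reported here. The genes and lists were chosen with earlier results of these data known, and the roles, sequence sharing, exon overlap and shares were added after the counts were seen. Promoter sequences are from RefSeq (GRCm38.p6).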

Additional observations from a re-analysis of the deposited data

Results flagged for a closer look

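The dose effect differed between 24 h and 4 h, by the test of that difference (dose by time term, edgeR, adjusted over all genes), for 4 of the 87 genes, 3 upward and 1 downward, where 4.06% and 4.76% of all genes were called. None of the 87 was called without IL-2 at 500 nM for 24 h, or without IL-15 at that dose and time. The log2 effect at 24 h minus that at 4 h was 0.90 for Atp5a1, 1.02 for Atp5b, 1.21 for Cox4nb and −1.41 for Cox7a2l. No condition has more than 1 library, so no group was large enough to look for a library far from the others.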

How the results depend on the processing

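No library can be checked against a second one of its condition, and leaving out 1 library leaves 1 pair for a dose effect at 1 time. All settings but those for single genes in the dose effect at 24 h, which were added after seeing the data, were planned. No gene called for dose, time or dose at 24 h reversed. Of 4587 values of single genes 4236 kept their side of the threshold, 167 lost a call and 184 gained one. Most of these values belong to genes that were not called. Among called genes, those kept in every alternative were 13 of 39 rises and 1 of 4 falls for dose at 24 h. For dose they were 1 of 16 rises and 1 of 2 falls, and for time 0 of 1. With dose, 18 genes were called. DESeq2 gave 30, a dose by time term 40, all 3 interactions 42, and leaving out a library 4 to 31. For time (1) these gave 12, 23, 34 and 0 to 12, limma-voom 5 and a mean of at least 50 counts 3. For 4 h against untreated (0) DESeq2 gave 1, the dose by time term 1 and all interactions 3, and leaving out a library 0. For 24 h against untreated (0) they gave 2, 5 and 14, and leaving out a library 0 to 1. For dose by time (4) DESeq2 and all interactions gave 8 each, and leaving out a library 0 to 10. For dose at 4 h (2) they gave 7 and 9, and leaving out a library 0 to 7. For dose at 24 h (43) other settings gave 37 to 46 and leaving out a library 16 to 44. The cytokine count was 0 throughout. The share of all genes called moved with the setting too, so a higher count alone is no gain over the background. For dose, 20.7% of the 87 stood beside 16.1% of all genes. By DESeq2 it was 34.5% beside 25.7%, with a dose by time term 46% beside 32.1% and with all 3 interactions 48.3% beside 34.3%. With all 3 interactions it was 16.1% beside 15.2% for 24 h against untreated, and 10.3% beside 12.9% for dose at 4 h. A median was taken to move when it shifted by more than the SD between matched pairs, which happened for dose at 4 h (0.30 without IL-15 at 1 nM for 4 h, range over libraries left out 0.0337 to 0.2969) and dose at 24 h (0.75 without IL-2 at 1 nM for 24 h, range 0.4515 to 0.751). The cause was not tested. No paired analysis was possible because no condition has a second replicate number to pair on. Libraries matched by cytokine and time were compared through those terms of the model. Low counts limit the tissue-restricted isoforms and Uqcrb.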
